A study of Rattus norvegicus with 9 samples.

Results

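The 9 genes of basal and squamous epithelium described here, among the 17465 genes of the deposited table, are Krt5, Krt14, Krt15, Krt17, Krt13, Krt4, Tp63, Dsg3 and Trim29. They were chosen by name, with earlier results of these libraries known, and were found through their NCBI Gene IDs. All 9 genes had a row, and 7 of 9 passed the filter on low counts. Krt13 and Dsg3 did not pass it and are given as counts only. Because the genes were chosen with the values of all 3 groups in view, their own levels and fold changes are a description and support no test.

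Ribosome-depleted total RNA was sequenced from 9 fetal lungs of Sprague-Dawley rats. Control and hypoplastic lungs had no treatment (3 each), and 3 further hypoplastic lungs, here called treated lungs, had received AFSC-EV, the vesicles that amniotic fluid stem cells shed. The hypoplasia, an underdevelopment of the lung, followed oligohydramnios, a lack of amniotic fluid, in both hypoplastic groups. The sources used here do not give fetal age, litter, vesicle dose or route, or whether airway outside the lung was kept. Library totals ran from 56922779 to 88243188 estimated counts, and levels are CPM, counts relative to the TMM-scaled library size, which are compared between libraries and not between genes. The lung epithelial genes Sftpc (surfactant protein C) and Nkx2-1 (the lung lineage transcription factor) were present in every library, at 291.8 to 950.8 and 264.5 to 441.8 CPM. Hypoplastic library 1, from 1 lung, stood apart from the other 8 for Krt5, Krt14, Krt15, Krt17, Tp63 and Trim29 and for cartilage genes. Hypoplastic libraries 1 and 2 stood apart from the other 7 for heart muscle genes. Fitted changes of the basal and squamous genes are given with and without hypoplastic library 1.

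Basal cells are the stem cells of the stratified and pseudostratified epithelia. They sit on the basement membrane, depend on the transcription factor p63 (Tp63), and fill their cytoplasm with filaments of the paired keratins 5 and 14. In rodents they line mainly the trachea and the large airways. In squamous epithelia such as the oesophagus the cells that leave the basal layer switch to the keratin pair 4 and 13.

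RefSeq promoters of assembly GRCr8 were at hand for 4 of the 9 genes. Those of Krt5, Krt4 and Tp63 are shown because Krt5 and Tp63 were high in the same lung, while Krt4, of the same keratin gene cluster as Krt5, was not. Each is the 250 bases before the annotated start, 5′ to 3′, and capitals mark motif matches. Krt5 lies at chr7:134730570-134730819, Krt4 at chr7:134930714-134930963 and Tp63 at chr11:88554178-88554427, all on the minus strand. Which p63 isoform the Tp63 start belongs to is not given there.
Krt5: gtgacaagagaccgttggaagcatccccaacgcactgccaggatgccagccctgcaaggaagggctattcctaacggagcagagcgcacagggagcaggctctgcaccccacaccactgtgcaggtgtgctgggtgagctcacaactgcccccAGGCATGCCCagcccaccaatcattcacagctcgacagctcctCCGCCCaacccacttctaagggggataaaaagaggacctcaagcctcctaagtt
Krt4: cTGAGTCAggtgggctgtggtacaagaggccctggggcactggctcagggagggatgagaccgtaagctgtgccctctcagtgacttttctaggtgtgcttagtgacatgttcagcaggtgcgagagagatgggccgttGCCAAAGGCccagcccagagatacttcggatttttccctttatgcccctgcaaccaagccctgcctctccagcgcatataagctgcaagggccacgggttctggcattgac
Tp63: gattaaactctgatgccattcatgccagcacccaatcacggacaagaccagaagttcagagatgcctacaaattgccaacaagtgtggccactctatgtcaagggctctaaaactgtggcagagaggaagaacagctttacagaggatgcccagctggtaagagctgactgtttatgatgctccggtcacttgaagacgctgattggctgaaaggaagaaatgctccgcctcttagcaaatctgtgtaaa
The letters TATAAA of the core promoter, GGGCGG for the GC box bound by Sp1, TGANTCA for AP-1 and GCCNNNGGC for AP-2 were searched on both strands. The half-site of the p53 family, to which p63 belongs, was searched likewise. The Krt5 window held 1 half-site of the p53 family, from base -97, and 1 GC box, read on the other strand, from base -54, counted back from the start. The half-site was in 6.64% of 33469 promoter windows of this length and the GC box in 30.5%. The Krt4 window held an AP-1 match at -249 (6.34% of windows) and an AP-2 match at -111 (12.6%), and the Tp63 window held none of the 5 motifs. The fourth promoter, of Dsg3, which was not high in that lung, also held a half-site of the p53 family, from base -246. No matches overlapped, and a match is a run of letters, not a binding site.

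Tp63 and the keratins of basal cells were high in 1 lung, hypoplastic library 1. Krt5, the type II keratin of the basal layer, was at 0.460, 0.482 and 0.0542 CPM in control libraries 1 to 3. In the hypoplastic libraries it was at 14.9, 0.196 and 0 CPM, and in the treated libraries at 0.0922, 0.179 and 0.0466 CPM. Hypoplastic library 1 therefore stood at 30.9 times the highest other library, while hypoplastic library 2 lay within the range of the controls. The rounded counts were 976 in hypoplastic library 1, 30 or fewer in the others, and 0 in hypoplastic library 3, which allows a level of up to 0.0543 CPM (3 counts). The 95% exact Clopper-Pearson interval in hypoplastic library 1 was 13.96 to 15.85 CPM, and such intervals and limits cover counting error only.

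Krt14, the type I partner of Krt5, was at 0.0766, 0.107 and 0.0271 CPM in control lungs. It was at 14.9, 0.931 and 0.145 CPM in hypoplastic lungs and at 0.224, 0.359 and 0.220 CPM in treated lungs. All 6 libraries of hypoplastic lungs, treated or not, were above the 3 controls, on counts of 2 to 6 in control, 8 to 979 in untreated and 15 to 30 in treated lungs. Hypoplastic library 1 was 16.0 times the highest other library, hypoplastic library 2.

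Tp63 itself was at 1.18, 0.968 and 0.941 CPM in control lungs, at 8.30, 1.07 and 1.14 CPM in hypoplastic lungs and at 1.17, 1.60 and 1.32 CPM in treated lungs. Hypoplastic library 1 was 5.18 times the highest other library, and the other 8 libraries lay close together. More cells of a type and more RNA per cell cannot be told apart in such bulk lungs, nor can fewer cells and less RNA per cell.

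Krt15, a type I keratin of basal cells, was at 8.02, 9.04 and 6.49 CPM in control lungs, at 62.98, 17.99 and 3.53 CPM in hypoplastic lungs and at 4.57, 10.7 and 7.47 CPM in treated lungs. The hypoplastic lungs thus held the highest and the lowest library of the 9. Krt17, a type I keratin of basal cells and of stressed epithelium, was at 1.54, 2.12 and 0.529 CPM in control lungs, at 47.4, 3.95 and 1.74 CPM in hypoplastic lungs and at 1.08, 2.91 and 1.84 CPM in treated lungs. Its hypoplastic library 1 was 12.0 times the highest other library. Trim29, a tripartite motif protein of basal and squamous cells, was at 0.260, 0.0892 and 0.0542 CPM in control lungs. It was at 3.67, 0.686 and 0.326 CPM in hypoplastic lungs and at 0.224, 0.179 and 0.0587 CPM in treated lungs. The 3 hypoplastic libraries were above all 6 others for Trim29, on 18 to 241 counts against 4 to 17.

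**Figure D1:**
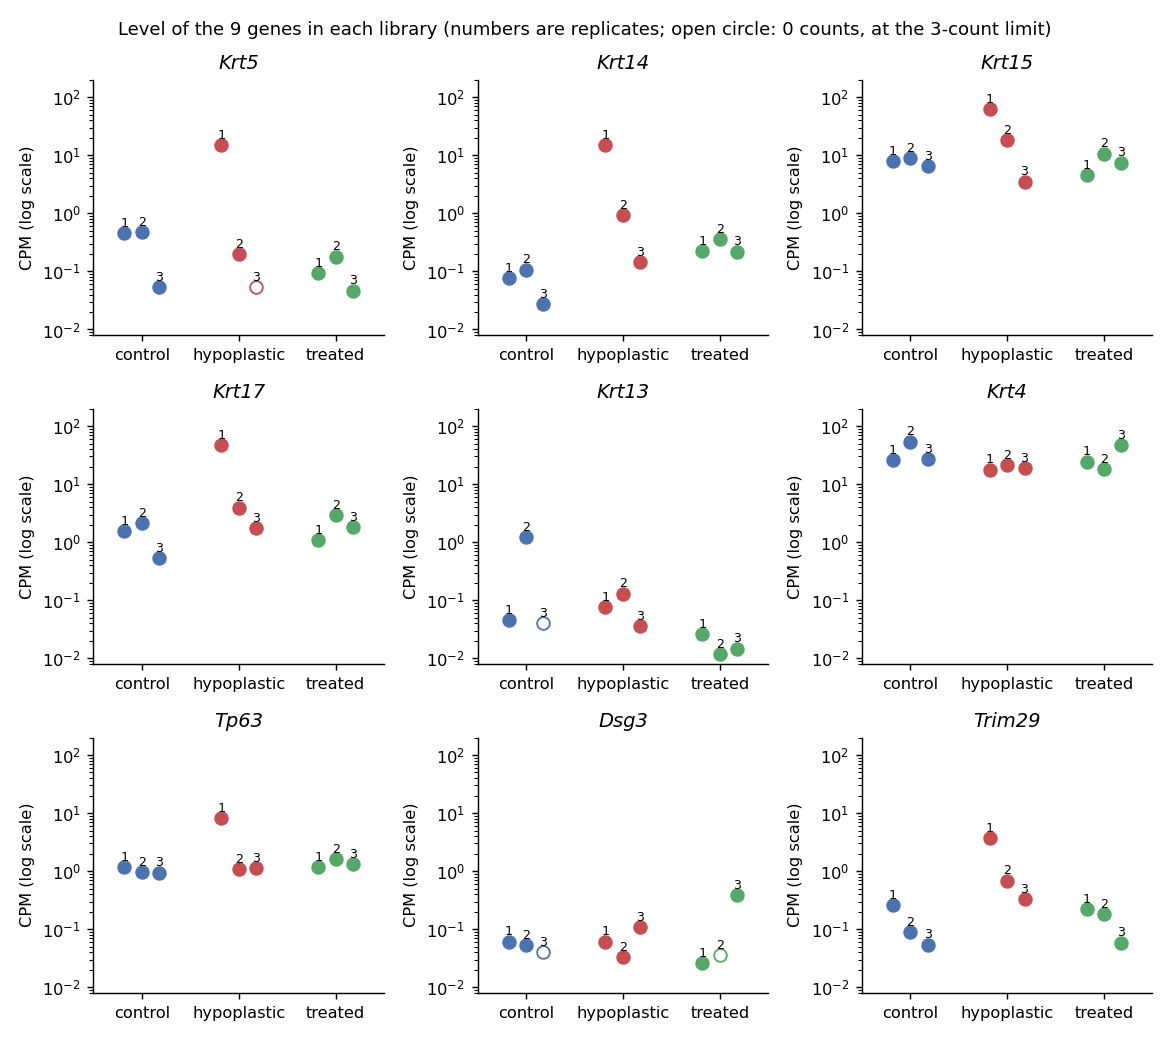
Level of each of the 9 genes in CPM (log axis) in the 3 libraries of each group, numbered by replicate, with a library at 0 counts drawn as an open circle at its 3-count limit. Hypoplastic library 1 is the top point for Krt5, Krt14, Krt15, Krt17, Tp63 and Trim29 and not for Krt13, Krt4 or Dsg3.

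The squamous genes of the set did not share that pattern. Krt4, the type II keratin of suprabasal squamous cells, was at 25.6, 54.2 and 26.8 CPM in control lungs and at 17.9, 21.1 and 18.7 CPM in hypoplastic lungs, with no overlap. In treated lungs it was at 24.4, 18.3 and 47.6 CPM, a range that overlapped both other groups. Its level in hypoplastic library 1 was the lowest of the 9. Krt13, the type I partner of Krt4, had 69 counts in control library 2 (1.23 CPM) and 0 to 8 counts elsewhere. Dsg3, a cadherin of squamous desmosomes, had 26 counts in treated library 3 (0.382 CPM) and 0 to 6 counts elsewhere. The squamous part of the name thus rested on Krt4 alone, which does not show that these lungs held squamous epithelium. Krt13 had 8 counts or fewer and Dsg3 6 or fewer in 8 of 9 libraries each, where 3 counts stand for 0.0359 to 0.0543 CPM.

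Among the 12966 genes that passed the filter, hypoplastic library 1 was the highest of the 9 libraries for 14.6%, and for 6 of the 7 basal and squamous genes tested. It was at least 4 times the highest other library for 25 genes (0.193%). Krt5, Krt14, Krt17, Tp63 and Trim29 were 5 of these 25 genes (20.0% of them, and 71.4% of the 7 genes tested), while Krt15 lay just under that threshold at 3.50 times. The same threshold was met by 67 genes in hypoplastic library 2 (0.517%), by 5 in control library 2 (0.0386%) and by 0 in each of the other 6 libraries.

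Hypoplastic lungs were compared with control lungs to see what the model changed. Krt5 averaged 0.332 ± 0.241 CPM over the 3 control lungs (SD) and 5.03 ± 8.54 CPM over the 3 hypoplastic lungs (SD), and its fitted log2 ratio was 3.99 (SE 1.60). The SD exceeded the mean, and without hypoplastic library 1 the ratio was -1.62 (SE 1.13). For Tp63 it was 1.79 (SE 0.722) with all libraries and 0.11 (SE 0.290) without that one, and for Krt15 it was 1.85 (SE 0.771) and 0.46 (SE 0.572). Limma voom gave 0.58 for Krt5 with all libraries.

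Krt14, Trim29 and Krt17 kept a higher fitted value without that library. The log2 fold change of Krt14 was 6.29 (SE 1.63) with all libraries and 3.003 (SE 0.869) without hypoplastic library 1. That of Trim29 was 3.56 (SE 1.01) and 1.92 (SE 0.707), and that of Krt17 was 3.70 (SE 1.13) and 1.06 (SE 0.598). Hypoplastic library 2 carried much of the remainder, at 13.3 times the control mean for Krt14, 5.09 times for Trim29, 2.83 times for Krt17 and 2.29 times for Krt15. These were 4 of the 7 genes for which it lay above all 3 controls (31.2% of all genes). For Krt5 and Tp63 the same library was at 0.591 and 1.04 times the control mean. The second hypoplastic lung thus shared the Krt14, Krt15, Krt17 and Trim29 part of the pattern and not the Krt5 and Tp63 part. This was not particular to it, since treated library 2 also lay above all 3 controls for 4 of the 7 genes (24.9% of all genes). These were Krt14, Krt15, Krt17 and Tp63, with the keratins at lower levels than in hypoplastic library 2.

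Krt4 ran the other way, averaging 35.6 ± 16.2 CPM over the 3 control lungs (SD) and 19.2 ± 1.68 CPM over the 3 hypoplastic lungs (SD), with a log2 ratio of -0.88 (SE 0.373). Without hypoplastic library 1 it was -0.83 (SE 0.442), and without control library 2, the highest, it was -0.45. Over the 7 genes tested the median log2 fold change was 3.56, beside 0.01 over all genes, and without hypoplastic library 1 it was 0.46, beside 0.000641. The edgeR quasi-likelihood test called none of the 7 (0 members, 0.00771% of all genes at an adjusted p under 0.05). At an adjusted p under 0.05 limma voom also called 0, and DESeq2 called 2, Krt14 and Trim29 (1.56% of all genes). At an unadjusted p under 0.05 edgeR had all 7 (12.4% of all genes), 6 higher (6.67%) and 1 lower (5.69%). Without hypoplastic library 1 it had 2 higher, Krt14 and Trim29 (6.95%), and 0 lower (4.82%). Library values did not overlap for Krt14 and Trim29, higher in hypoplastic lungs (7.67% of all genes), and for Krt4, lower (9.05%). Nothing is read from these counts, because the genes were chosen with this comparison known.

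**Figure D2:**
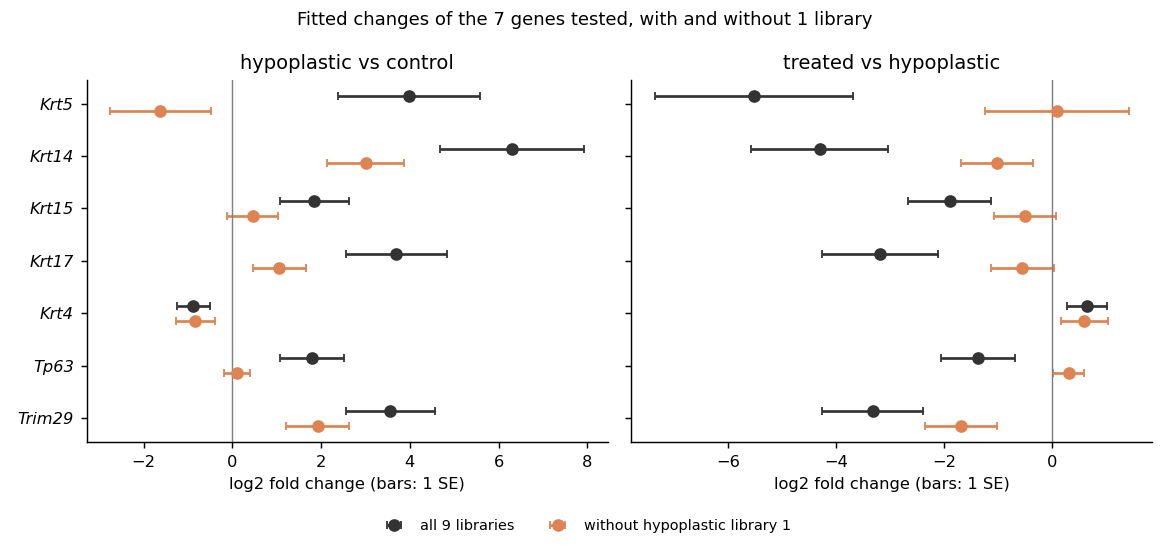
Fitted log2 fold changes of the 7 genes tested, with bars of 1 SE, for hypoplastic against control lungs (left) and treated against hypoplastic lungs (right), with all 9 libraries and without hypoplastic library 1. Leaving that library out moved Krt5 from 3.99 to -1.62 on the left and from -5.52 to 0.09 on the right, and left Krt4 nearly in place.

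Treated lungs were compared with untreated hypoplastic lungs to see what the vesicles changed. The untreated lungs enter both comparisons, so hypoplastic library 1 moved both. The log2 fold change of Krt5 was -5.52 (SE 1.83) with all libraries and 0.09 (SE 1.33) without that one, and that of Tp63 was -1.37 (SE 0.690) and 0.30 (SE 0.282). For Krt17 it was -3.19 (SE 1.08) and -0.55 (SE 0.579), for Krt15 -1.89 (SE 0.769) and -0.51 (SE 0.570), and for Krt14 -4.30 (SE 1.27) and -1.02 (SE 0.662). Trim29 averaged 1.56 ± 1.84 CPM over the 3 hypoplastic lungs (SD) and 0.154 ± 0.0854 CPM over the 3 treated lungs (SD). Its log2 fold change of -3.33 (SE 0.942) was -1.69 (SE 0.667) without hypoplastic library 1, and it was the 1 gene of the 7 without overlap of the libraries (lower in treated, 4.74% of all genes, with 5.09% higher). The log2 ratio of Krt4 was 0.65 (SE 0.372), 0.59 (SE 0.439) without hypoplastic library 1 and 0.15 without treated library 3, its highest treated lung.

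The median over the 7 genes was -3.19, beside -0.01 over all genes, and -0.51 without hypoplastic library 1. The edgeR test called none of the 7 (0 members, 0.0% of all genes), and neither limma voom nor DESeq2 (0.131% of all genes) called a member. At an unadjusted p under 0.05 there were 5 of 7 (5.56% of all genes), 5 lower (3.56%) and 0 higher (2.0%), and without hypoplastic library 1 there were 1 lower, Trim29 (3.76%), and 0 higher (1.74%).

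Treated lungs against control lungs, the comparison that leaves the untreated hypoplastic lungs out, gave log2 ratios between -1.53 and 1.99. Tp63 averaged 1.37 ± 0.219 CPM over the 3 treated lungs (SD) and 1.03 ± 0.131 CPM over the 3 control lungs (SD), with a log2 ratio of 0.41 (SE 0.753). The ratio was -0.05 (SE 0.761) for Krt15, -0.24 (SE 0.369) for Krt4, 0.51 (SE 1.14) for Krt17 and 0.23 (SE 1.40) for Trim29. The sign for Krt15 was the other one with the replicate block (0.04), without control library 2 (0.07) and without treated library 1 (0.22). That for Krt4 turned without control library 2 (0.20) or treated library 2 (0.02), and that for Trim29 without control library 3 (-0.19) or treated library 1 (-0.10), while without control library 1 it was 1.17. Krt5 averaged 0.106 ± 0.0675 CPM over the 3 treated lungs (SD), with a log2 ratio of -1.53 (SE 2.49). Krt14 was the 1 gene without overlap (higher in treated, 4.37% of all genes, with 5.01% lower), at 0.268 ± 0.0789 CPM over the 3 treated lungs (SD) against 0.0703 ± 0.0403 CPM over the 3 control lungs (SD), with a log2 ratio of 1.99 (SE 2.30). The edgeR test called none of the 7 (0 members, 0.0% of all genes), 0 had an unadjusted p under 0.05 (4.17%, of which 1.67% higher and 2.5% lower), and neither limma voom nor DESeq2 (0.108% of all genes) called any. Hypoplastic library 1 is in neither group but enters the shared estimate of spread, and without it the SE of Krt14 was 0.883 and that of Tp63 was 0.248.

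The other keratins of the same gene clusters that passed the filter were near or below their highest other level in hypoplastic library 1. In RefSeq order Krt16, a type I keratin of activated epithelium, lies between Krt14 and Krt17, and Krt19, a keratin of simple epithelium, lies between Krt15 and Krt14. In hypoplastic library 1 Krt16 was at 0.924 times and Krt19 at 0.796 times the highest other library. Of the 11 keratins tested in both clusters that are not among the 9 genes, 1, the simple keratin Krt18, was highest in hypoplastic library 1, at 1.10 times. Of the keratins that did not pass it, Krt33a, Krt88, Krt12, Krt27 and Krt42 were highest there too, at 0.122 CPM or less. The sources used here do not say how reads shared by similar keratins were assigned, so counts of neighbours with like sequences are uncertain.

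**Figure D3:**
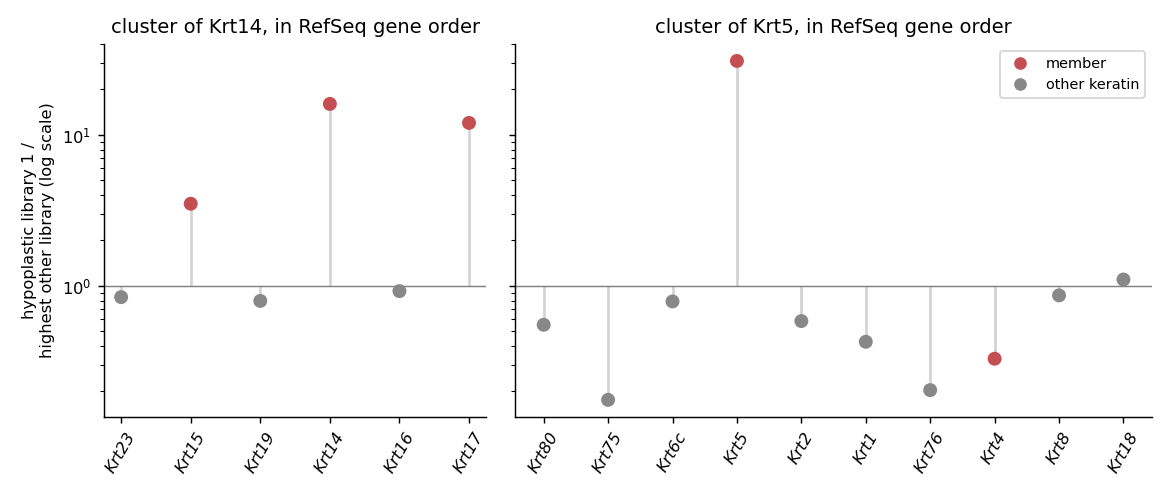
Ratio of hypoplastic library 1 to the highest other library (log axis) for the 16 keratin genes tested, in RefSeq gene order within the cluster that holds Krt14 and the one that holds Krt5. Krt15, Krt14, Krt17 and Krt5 lie above the line at 1 by 3.50 to 30.9 times, and their neighbours lie near or below it.

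Genes that act with the basal program were read from lists chosen beside the 9 genes, and at an adjusted p under 0.05 edgeR called 0 of their genes in each comparison. Of 11 genes that anchor epithelium to the basement membrane, 1 was higher and 5 were lower in hypoplastic than in control lungs at an unadjusted p under 0.05, beside 6.67% and 5.69% of all genes. Without hypoplastic library 1 they were 0 and 4. The higher one was Col17a1, the hemidesmosome collagen, at 0.475, 0.785 and 0.732 CPM in control, 4.38, 2.68 and 0.543 CPM in hypoplastic and 0.5003, 0.789 and 0.570 CPM in treated lungs. Like Krt14, it was high in hypoplastic libraries 1 and 2. Lama3, a laminin chain of the epithelial basement membrane, averaged 186.2 ± 22.8 CPM over control and 119.5 ± 2.33 CPM over hypoplastic lungs (SD, 3 each), an edgeR adjusted p of 0.317. Among the abundant genes of the list, Itgb1 (integrin beta 1) was at 1.09 times and Plec (plectin) at 0.599 times the highest other library in hypoplastic library 1. Summed over the list, hypoplastic library 1 (2716 CPM) lay within the range of the other libraries (2578 to 2949 CPM). Itgb1 made up 1404 CPM of that sum and Col17a1 4.38 CPM. Sums of this and the later lists thus mainly follow their abundant genes and can miss a change in a scarce one.

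Of 7 desmosome genes measured, 1 was higher and 3 were lower by the same unadjusted threshold, and 0 and 3 without hypoplastic library 1. Dsc3, the desmocollin of basal layers, was the higher one, at 0.534, 0.833 and 0.0543 CPM in hypoplastic lungs and at most 0.184 CPM in the other groups. Jup (plakoglobin), which every epithelium uses, averaged 303.1 ± 11.5 CPM over control and 228.4 ± 34.8 CPM over hypoplastic lungs (SD, 3 each), with an edgeR adjusted p of 0.317. Of 10 further genes of airway basal cells, 1 was higher and 2 were lower, and 1 and 3 without hypoplastic library 1. In both fits the higher one was Ngfr, the nerve growth factor receptor, with 1.35, 3.08 and 0.735 CPM in hypoplastic lungs and at most 0.624 CPM elsewhere. None of these 10 genes was highest in hypoplastic library 1, where the abundant Cav1, Cdh3 and Pdpn were at 0.571, 0.684 and 0.511 times the highest other library.

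Of 14 partners and regulators of p63 and squamous epithelium measured, 1 (Pax9) was higher and 1 lower in hypoplastic lungs at an unadjusted p under 0.05, and 0 and 1 without hypoplastic library 1. Of these 14, 2 had their highest level in hypoplastic library 1: Pax9, at 1.25 CPM against at most 0.176 elsewhere, and Tfap2a, which did not pass the filter, at 1.98 CPM against at most 0.171. The widely expressed Klf5, of the same list, was at 0.714 times the highest other library. Of 22 genes of suprabasal and cornified layers measured, 11 passed the filter, and 0 of these 11 reached an unadjusted p under 0.05 for that contrast. The cornified envelope genes Sprr3 and Cnfn were at 0 in every library, and Ivl (involucrin) had 1 count, in hypoplastic library 1. Of the 22, 5 were highest in that library, namely Ivl, Klk10, Lgals7, Csta and Cstb, of which Cstb alone had passed the filter, at 1.02 times the highest other library. Klk10, a kallikrein protease, was at 0.183 CPM there and at 0 elsewhere. The abundant Ppl (periplakin) was there at 0.311 times and Anxa1 at 0.823 times.

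For the same 5 lists, treated against hypoplastic lungs had 1 higher and 1 lower gene of basement membrane attachment, 2 and 1 of the desmosome, 0 and 1 of further airway basal genes, 1 and 1 of p63 partners and 0 and 1 of the suprabasal list at an unadjusted p under 0.05. Without hypoplastic library 1 the counts of that contrast were 2 and 1, 0 and 0, 0 and 1, 0 and 1, and 0 and 0. In treated against control lungs the lower genes were 1, 0, 1, 0 and 1, and 0 were higher in each list. Of all genes, 2.0% were higher and 3.56% lower in the first of these contrasts, and 1.67% and 2.5% in the second.

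Markers of tracheal cartilage and the airway gene Scgb3a1 were also highest in hypoplastic library 1. All 10 genes of the tracheal cartilage list, 8 of them past the filter, had their highest level there, beside 14.6% of all genes that passed it. Their ratios to the highest other library ran from 1.01 (Snorc, on 14 counts in each of the libraries compared) to 96.9 (Matn1). The sum of the list was 1171 CPM in hypoplastic library 1. It was 140.8 to 465.8 CPM in control, 403.6 and 564.5 CPM in the other hypoplastic and 425.7 to 541.3 CPM in treated lungs. Matn1, the matrilin of cartilage, was at 9.20 CPM against at most 0.0949 elsewhere, and Comp, cartilage oligomeric matrix protein, was at 9.45 against at most 0.359. Scgb3a1, a secretoglobin of the upper airway, was at 30.8 CPM against at most 0.606, while Scgb1a1, the club cell secretoglobin of the lung, was at 196.2 CPM, within the range of the other libraries. Of the 8 airway luminal genes measured, which include both, 3 were highest in hypoplastic library 1. Foxj1, of the same list, was at its lowest there, at 10.5 CPM against up to 49.45 CPM elsewhere. Col2a1, the main cartilage collagen, made up 894.4 CPM of the cartilage sum in hypoplastic library 1, at 1.75 times its highest other library. The 4 cartilage genes Comp, Hapln1, Col9a1 and Col11a2, and Scgb3a1 and Pax9 were among the 25 genes at 4 times or more that passed the filter. Matn1, at 96.9 times the highest other library, did not pass it. The part that these tissues had in the levels of the basal genes was not tested.

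Heart muscle markers were high in hypoplastic libraries 1 and 2. Hypoplastic library 2 had Krt14, Trim29, Krt17 and Krt15 at 13.3, 5.09, 2.83 and 2.29 times the control mean, and Krt5 and Tp63 at 0.591 and 1.04 times. The sum of the 7 heart muscle genes was 145.2 and 75.4 CPM in hypoplastic libraries 1 and 2 and 3.03 CPM in hypoplastic library 3. It was 2.67 to 10.9 CPM in control and 2.70 to 5.78 CPM in treated lungs. Myh6, the alpha myosin heavy chain, was at 70.9 and 28.2 CPM in these 2 libraries and at most 3.12 CPM in the others. Nppa, the atrial natriuretic peptide, was at 4.55 CPM in hypoplastic library 2 and at 0 in hypoplastic library 1. For thymus, which also holds keratin 5 and 14 epithelium, the sum of 10 genes was 9.53 CPM in hypoplastic library 1 and 8.08 to 12.7 CPM in the others, and Foxn1, the thymic epithelial factor, was at 0 in all libraries. The mesothelial sum (4 genes) was 45.3 CPM in hypoplastic library 1 against 14.7 to 89.6 CPM elsewhere, and the striated muscle sum (8 genes) was 18.6 against 12.1 to 20.8 CPM. All 3 hypoplastic sums of striated muscle (18.6 to 20.8 CPM) lay above the 3 of control lungs (12.1 to 14.3 CPM). At an unadjusted edgeR p under 0.05, 3 of its 5 genes tested were higher in hypoplastic than in control lungs (6.67% of all genes). The same count was 5 of 6 for heart muscle and 5 of 8 for tracheal cartilage. Without hypoplastic library 1 it was 2 of 5 for striated muscle, 3 of 6 for heart muscle and 0 of 8 for tracheal cartilage (6.95% of all genes). In that fit 1 cartilage gene, Matn3, was lower (4.82% of all genes). Of the striated muscle genes, Myh3, an embryonic myosin heavy chain, was at 0.854 and 1.81 CPM in hypoplastic libraries 1 and 2 and at most 0.162 CPM elsewhere. The part of muscle in the levels of the basal genes was not tested. The smooth muscle and myoepithelial sum (5 genes) was 587.8 against 145.0 to 491.7 CPM, and 3 of its 5 genes were highest in hypoplastic library 1. The simple epithelial sum (7 genes) was 1916 against 1517 to 2025 CPM, and the airway luminal sum (8 genes) 312.6 against 230.4 to 469.0 CPM. The blood sum (5 genes) was 3948 against 3216 to 10930 CPM, and the liver sum (7 genes) 0.229 against 0.0678 to 6.28 CPM.

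**Figure D4:**
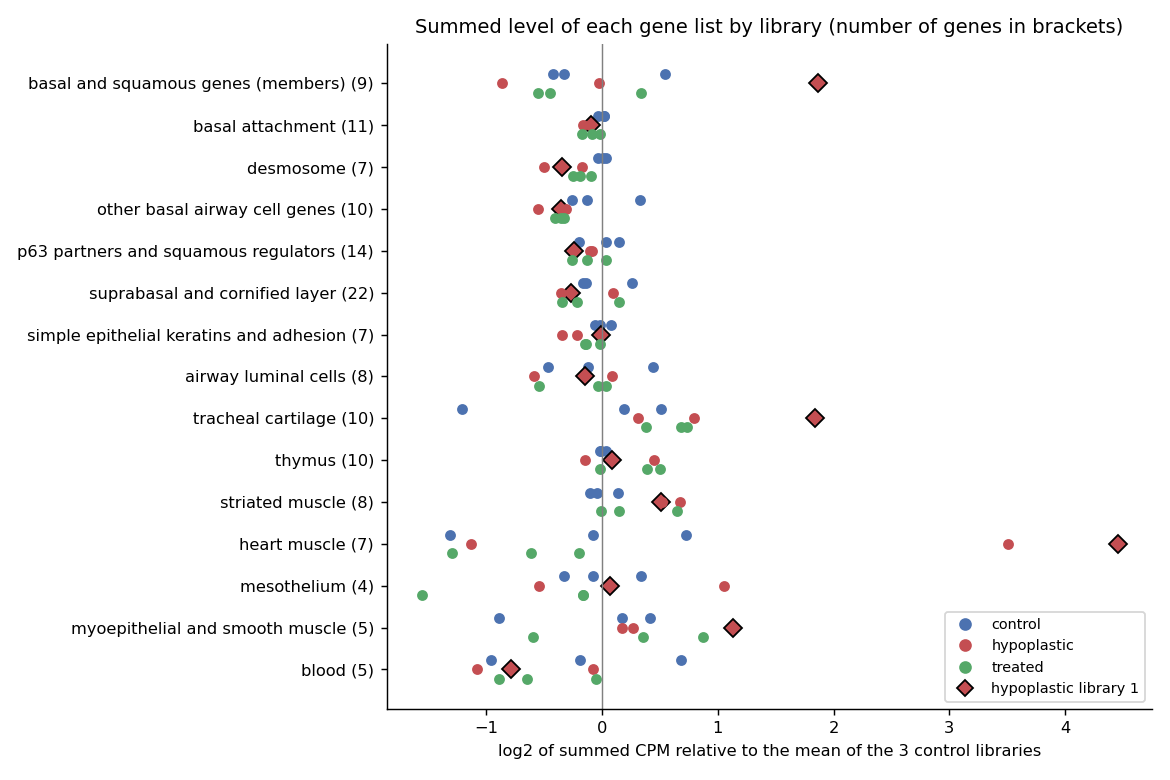
Summed CPM of each gene list in each library, as log2 relative to the mean of the 3 control libraries, with hypoplastic library 1 as a diamond and the number of genes in brackets. The diamond lies apart to the right for the 9 genes and for tracheal cartilage (1171 CPM), and for heart muscle (145.2 CPM) together with hypoplastic library 2.

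Pearson's r of log2 CPM between pairs of the basal genes, over the 9 libraries, is a description that rests on the high library. It was 0.705 for Krt5 and Krt14 and 0.0897 over the 8 libraries without hypoplastic library 1, and for Krt5 and Tp63 it was 0.771 and -0.0359. For Krt14 and Krt17, which share the high level in hypoplastic library 2, it was 0.958 and 0.844. Krt4 had r of -0.658 to -0.109 with the other 6 over 9 libraries, and of -0.665 to 0.301 over 8. The genes with the profile most like the mean of the 7 genes tested were Mfsd4a, Pkia, Kiaa1328, Vsnl1, Spidr, Trpm5, Osr2 and Stpg4, with r of 0.918 to 0.967 over 9 libraries. Those most like Krt5 were Bpifb1, a secreted protein of large airways, then Osr2, Snap91, Prkg1 and Cytl1, with r of 0.924 to 0.951. Without hypoplastic library 1 these values were 0.57 to 0.848 and 0.773 to 0.887. Because the genes were picked by r over all 9 libraries, a lower r without the high one follows largely from that choice.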

How the data were processed

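Ribosome-depleted total RNA was sequenced in 9 fetal rat lungs, 3 per group by the titles in the labels. Whether lungs of a group came from separate litters is not stated, so p-values measure the spread between these samples. The authors deposited 1 table of estimated counts, without normalization between libraries, in which 19.5% of nonzero values were exactly whole. The submitters' processing notes name the build rn7 and DESeq2, with no role. The aligner is not given in the sources used here, nor are the counter and annotation. Symbols came from RefSeq (GRCr8, names only), and 17314 IDs (99.1%) matched.

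Counts were rounded and tested with edgeR 4.0.16 in R 4.3.3 (glmQLFit with legacy=FALSE, glmQLFTest, TMM, filterByExpr by group). All 9 libraries entered 1 fit with 6 residual degrees of freedom, and p-values were adjusted by Benjamini-Hochberg over the 12966 genes tested. SEs are the change over the square root of F and are approximate. Log2 CPM used a prior count of 0.5. No 2 libraries of a group held the same counts within sampling noise (smallest chi-square over its degrees of freedom 134.3). The pipeline was tested on simulated data. DESeq2 1.42.0 and limma 3.58.1 were alternatives, with RLE factors, library totals, other filters, the 6 libraries compared, the replicate block, the ribosomal and 7SL rows removed and each library left out.

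The genes and lists were chosen with earlier results of these data known. Named were the 9 genes, list genes past the threshold or else up to 3 of highest level, and the genes most alike in profile (8 for the mean, 5 for Krt5). List genes named for a low unadjusted p or for hypoplastic library 1, and the 4-fold threshold, were chosen after their values were seen. Some genes that this rule names are not reported here.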

Additional observations from a re-analysis of the deposited data

How the results depend on the processing

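For the 7 genes tested, 21 fitted changes were recomputed. Under alternatives that kept all the libraries compared, 1 of 179 values had the other sign (Krt15, treated against control, 0.04 with the replicate block), and with 1 library left out 9 of 126 did. The median over the genes tested in hypoplastic against control lungs, 3.56, was 1.85 over 9 genes with no filter, 1.82 over 4 genes at 1 CPM in 3 libraries and 1.14 by limma voom. It ran from 0.461 (without hypoplastic library 1) to 4.02 with 1 library left out. In treated against hypoplastic lungs the median of -3.19 was -1.64 over the 4 genes at 1 CPM, -2.11 over 9 genes with no filter and -1.77 by limma voom, and ran from -3.72 to -0.506 (without hypoplastic library 1). In treated against control lungs the median of 0.23 ran from -0.165 (without control library 3) to 0.542. The first 2 filters change which genes are counted, and the cause of the voom values was not tested.

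Over all genes edgeR called 1 for hypoplastic against control lungs, 0 for treated against hypoplastic lungs (721 at an unadjusted p under 0.05) and 0 for treated against control lungs (541), and limma voom called as many. In that order DESeq2 called 202, 17 and 14, and the first count was 4 with only the 6 libraries compared. With 1 library left out the counts ran from 0 to 45, 0 to 44 and 0 to 1. The highest were without hypoplastic library 3 (45 and 44), then without hypoplastic library 1 (2 and 2), and the first count was 0 without control library 1 or 3. The third count was 1 without control library 2 and, as an alternative added after seeing the data, 0 without hypoplastic library 1. Replicate numbers are not said to pair lungs: r of same-numbered deviations was -0.259 to 0.191, over 0.1 in 3 of 9 pairs. For pairs with other numbers r was -0.416 to 0.357, over 0.1 in 6 of 18. A fit blocked on the replicate number called 2, 0 and 0 genes by edgeR, with medians of 2.81, -2.12 and 0.29 over the basal and squamous genes. Depth limits Krt13, Dsg3 and, outside hypoplastic library 1, Krt5, Krt14 and Trim29, which had at most 69, 26, 30, 57 and 42 counts.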

Other observations

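The 25 genes are those that passed the filter and were at least 4 times higher in hypoplastic library 1 than in any other library. The list genes Matn1, Tfap2a and Bpifa1 met that threshold, at 96.9, 11.6 and 5.84 times, without passing the filter. Klk10 (12 counts) and Ivl (1 count), also below the filter, were at 0 in every other library and so have no ratio. The 25 included 14 genes that are in none of the lists, named here after their values were seen. Among these 14, Gp2, a membrane glycoprotein of secretory granules, was at 7.20 CPM against at most 0.303 elsewhere, and Chia, the acidic chitinase, at 36.7 against at most 4.23 CPM. Agr2, a disulfide isomerase of mucous cells, was at 13.1 against at most 3.01 CPM. Col11a1, a cartilage collagen, was at 89.1 against at most 13.98 CPM, and Omd (osteomodulin) at 2.36 against at most 0.224 CPM. The transcription factor genes Sim2 and Osr2 were at 3.95 against 0.362 and 3.004 against 0.606 CPM. These are values of 1 lung, with no replicate of their own.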
